A study of Mus musculus with 9 samples.

Results

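The inhibin, activin and follistatin system was followed through 10 genes, which were taken from the expression tables by gene symbol and were all found among the 52025 genes listed. They comprise the subunit genes Inha, Inhba and Inhbb, the binding proteins Fst and Fstl3, the receptors Acvr2a, Acvr2b and Acvr1b, the co-receptor Tgfbr3 and the pseudoreceptor Bambi. RNA from ovaries of juvenile Kunming mice, for which the labels name no treatment or altered allele, was sequenced on postnatal day (PD) 14, PD15 and PD16, the days over which the first follicular antra form, with 3 libraries for each day. The question was which of these genes change as the antrum appears. By the labels the tissue was ovary and granulosa cells were collected, while the study's methods name ovaries, and markers of oocytes, theca, stroma, endothelium and blood were detected in every library, so the libraries are described as ovary. The depth was 20.4 to 28.7 M fragments per library.

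Activins and inhibins are dimers built from shared parts. A pair of beta subunits makes an activin, and a beta subunit joined to the alpha subunit makes an inhibin. Activins bind a type II receptor, which recruits the type I receptor ACVR1B, and the signal passes to SMAD2 and SMAD3. Inhibin lowers activin signalling by occupying type II receptors together with betaglycan, and follistatin binds activin and keeps it from its receptors. In the ovary granulosa cells are the main source of inhibin, which restrains the release of follicle-stimulating hormone by the pituitary.

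The upstream sequence of both beta subunit genes is shown because their level patterns are set side by side below. The 250 bases before each start site were read from RefSeq (GRCm38.p6). The window of Inhba is chr13:16011601-16011850 on the plus strand and that of Inhbb is chr1:119422249-119422498 on the minus strand, both written 5′ to 3′ along the gene, and each ends just before the start site that GENCODE M21 gives for the gene. Of the 10 genes, 7 matched the promoter table by symbol. Capitals mark matches on either strand to TATAAA, the letters of the TATA box, or to GGGCGG, those of the GC box. TATAAA was found in Inhba, and GGGCGG lies in Inhbb on the opposite strand.
Inhba: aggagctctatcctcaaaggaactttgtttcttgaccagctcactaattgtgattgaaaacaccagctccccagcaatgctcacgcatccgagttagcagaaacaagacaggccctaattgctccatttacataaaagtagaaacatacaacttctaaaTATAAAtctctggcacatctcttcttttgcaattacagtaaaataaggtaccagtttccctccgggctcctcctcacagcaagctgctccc
Inhbb: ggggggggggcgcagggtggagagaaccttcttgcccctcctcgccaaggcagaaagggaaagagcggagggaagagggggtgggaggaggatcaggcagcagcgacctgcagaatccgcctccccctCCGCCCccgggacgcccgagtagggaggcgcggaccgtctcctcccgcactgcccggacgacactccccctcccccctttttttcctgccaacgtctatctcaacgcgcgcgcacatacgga

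The Inhba window held 43.2% G and C and 3 CpG pairs, and the Inhbb window 68.0% and 21 pairs. Over the 32851 promoter windows of the same length the medians were 52.4% and 6.0 pairs. Inhba had 1 match to TATAAA, which 12.4% of all windows hold, and none to GGGCGG. Inhbb had 1 match to GGGCGG, which 32.7% of all windows hold, and none to TATAAA. The match in Inhba begins 91 bases before the start site and that in Inhbb 122 bases before it. Neither window held TGACG (the half-site of the cAMP response element, in 17.8% of windows), TGANTCA (the AP-1 site, 6.7%) or AAGGTCA (the SF-1 site, 4.1%), and no matches overlapped. These are matches of letters only.

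Levels are given in FPKM, fragments scaled by exon length and by the mapped fragments of the library, so that they can be set side by side between genes. Inha had the highest level of the 10 genes, with a mean of 2152 FPKM over the 9 libraries, and its rank among all genes in a library was 6 or 7. Inhbb followed at 189 FPKM, which was 11.4 times lower, then Fst at 123, Inhba at 56.9 and Tgfbr3 at 18.4 FPKM. The remaining genes were lower, with the receptors Acvr1b at 8.38, Acvr2a at 6.04 and Acvr2b at 2.56, the pseudoreceptor Bambi at 6.01 and the binding protein Fstl3 at 1.08 FPKM. The library ranges of neighbours in this order overlapped for Inhbb and Fst, for Fst and Inhba, and for Acvr2a and Bambi, and not for the other 6 neighbouring pairs. The levels of Inhba and Fst rest on the exon lengths behind the deposited values. The steps between the values fitted 1980 bases for Inhba and 2337 for Fst, and the GENCODE M21 exons cover 6390 and 4589. For the same fragments a longer exon length gives a lower FPKM, and the place of Inhba above Tgfbr3 holds for the length of 1980 bases. Fragments on the remaining exon bases were not counted here, so its place for 6390 bases is not known.

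**Figure D1:**
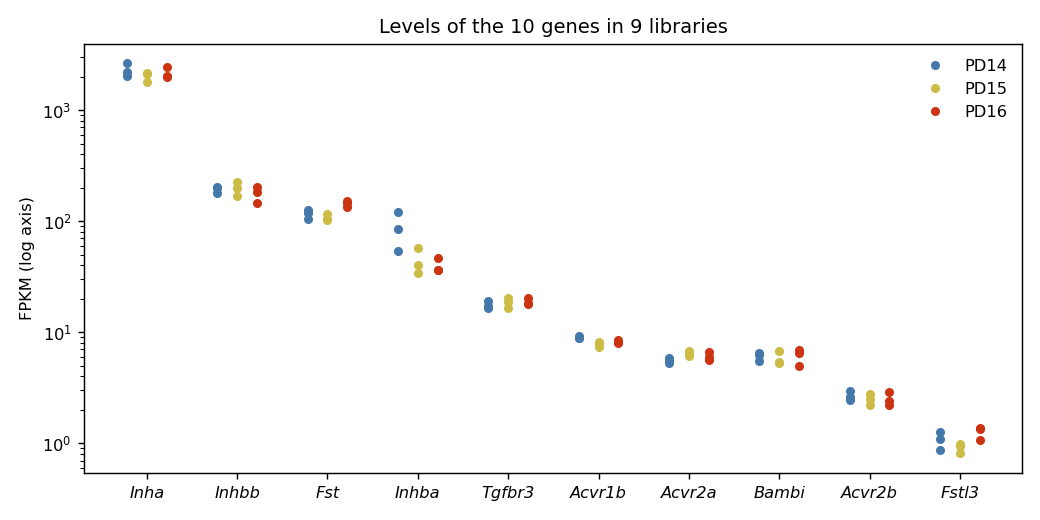
FPKM (log axis) of the 10 genes in the 9 libraries, with 3 points for each day coloured by PD14, PD15 and PD16 and genes ordered by mean level. The levels run from 0.811 FPKM for Fstl3 to 2629 FPKM for Inha, and the days lie close together for most genes except Inhba.

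Between days, the libraries of Inha, Inhbb, Acvr2b, Tgfbr3 and Bambi overlapped in every comparison, and those of Inhba, Fst, Fstl3, Acvr2a and Acvr1b did not overlap in at least 1. Inhba, the beta A subunit, had the lowest mean on PD16, at 39.8 FPKM against 87.0 on PD14, and Fst, follistatin, had the highest on PD16, at 144 against 116 on PD14 and 108 on PD15. Acvr1b, the type I activin receptor, was highest on PD14 by a small margin. None of these differences passed the test over all genes.

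The comparison used limma on log2(FPKM + 1), with Benjamini-Hochberg adjustment over the 15495 genes that passed the filter on low values, which all 10 members did. None of the 10 passed an adjusted p of 0.05 between any 2 days or in the limma F test among the 3 days. Over all genes tested, limma called 0.678% at PD15 against PD14, 4.25% at PD16 against PD14, 0.729% at PD16 against PD15 and 3.03% by the F test. These background calls, 105, 659, 113 and 469 genes, fell to as few as 3 (without replicate 1 of PD15), 92 (without replicate 1 of PD16), 14 (without replicate 1 of PD15) and 100 (without replicate 3 of PD14) when 1 library was left out. At an unadjusted p under 0.05 limma called 3 members at PD15 against PD14 (Inhba, Acvr2a and Acvr1b), 2 at PD16 against PD14 (Inhba and Fst), 1 at PD16 against PD15 (Fst) and 3 by the F test (Inhba, Fst and Acvr1b). The shares of all genes tested at that threshold were 14.7%, 22.8%, 14.1% and 22.3%. The libraries of the days compared did not overlap for 2, 3 and 2 members, beside 20.6%, 28.5% and 19.6% of all genes, so these shares of the members were near the background. The median log2 change of the members was -0.09, -0.04 and 0.05 in the 3 comparisons, beside 0.01 in each over all genes tested. Any 2 of these comparisons share the libraries of 1 day.

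**Figure D2:**
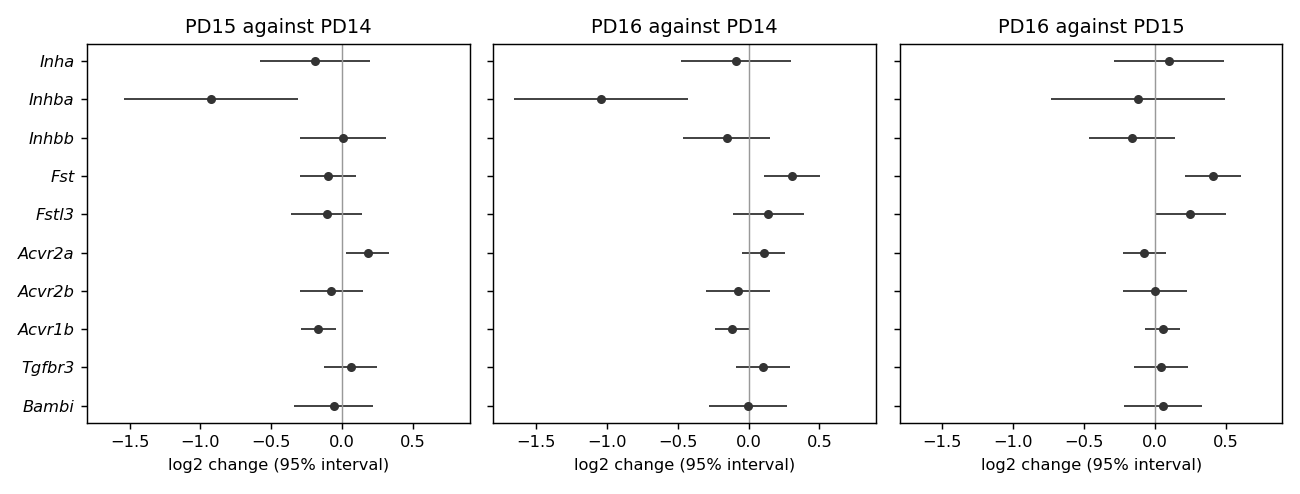
Log2 changes of the 10 genes between days on the log2(FPKM + 1) scale from limma, with 1 panel for each pair of days; points are estimates, bars are 95% intervals and the grey line marks 0. The intervals of Inhba lie below 0 at PD15 and PD16 against PD14, that of Fst lies above 0 at PD16 against both days, those of Acvr2a and Acvr1b lie above and below 0 at PD15 against PD14, and no change passed the adjusted threshold.

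Among the ligand subunits, Inha (ENSMUSG00000032968, chr1:75507077-75510366 in GRCm38 by GENCODE M21, plus strand) encodes the alpha subunit that makes a dimer an inhibin. Its level was 2210, 2048 and 2629 FPKM in the libraries of PD14, 2140, 1780 and 2103 FPKM in those of PD15, and 2042, 2429 and 1985 FPKM in those of PD16. The days overlapped, and the spread within a day (SD 300, 198 and 242 FPKM, n = 3 each) was of the same size as the differences between the means of 2296, 2008 and 2152 FPKM. The log2 change was -0.19 (95% interval -0.58 to 0.20) at PD15 against PD14 and -0.09 (-0.48 to 0.30) at PD16 against PD14. The former was -0.09 without replicate 3 of PD14 and -0.11 without replicate 2 of PD15. An exact permutation test over the 280 groupings of the libraries into 3 days gave p = 0.439.

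Inhba (ENSMUSG00000041324, chr13:16011851-16031621, plus strand) encodes the beta A subunit of activin A and inhibin A. Its level was 122, 53.9 and 85.5 FPKM on PD14, 34.4, 40.5 and 57.1 FPKM on PD15, and 46.3, 36.6 and 36.4 FPKM on PD16. The 3 libraries of PD14 were the most spread, all of them lay above those of PD16, and the lowest of them lay below the highest of PD15. The means were 87.0 ± 33.8, 44.0 ± 11.8 and 39.8 ± 5.66 FPKM (SD, n = 3 each), so PD16 stood at 0.457 of PD14. The log2 change in limma was -0.92 (SE 0.27, adjusted p = 0.166) at PD15 and -1.04 (SE 0.27, adjusted p = 0.0637) at PD16, each against PD14, and -0.12 (adjusted p = 0.901) at PD16 against PD15. This was the widest change of the 10 genes in the first 2 comparisons, and it did not pass the threshold. The exact permutation test over the days gave p = 0.0607. Over 18 alternative settings the log2 change at PD16 against PD14 ran from -1.35 to -0.77 with adjusted p from 0.0291 to 0.171. Without replicate 2 of PD14, its lowest library, the change was -1.35 with an adjusted p of 0.0291 in limma, and without replicate 1, its highest, -0.77 with 0.144. Each library held 1646 to 5899 fragments of Inhba, for which counting error is at most 2.46% and the spread between libraries of a day was 14.2% to 38.9%.

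The steroid synthesis enzyme Hsd3b1, a theca and interstitial marker, was high in the same libraries as Inhba, and so was the granulosa marker Cyp19a1. The level of 7 theca and interstitial markers was summed, most of it from Hsd3b1. The sum was 2231, 1609 and 1938 FPKM on PD14, 1182, 1259 and 1756 FPKM on PD15, and 1622, 1386 and 1211 FPKM on PD16. All 7 were detected, the lowest being Insl3 at 2.40 to 6.27 FPKM, and the 3 libraries with the highest Inhba were also the 3 with the highest sum. Cyp11a1, another enzyme of steroid synthesis, was also highest in replicate 1 of PD14, at 50.8 FPKM, and Lhcgr, the receptor of luteinizing hormone, was at 13.3 to 16.0 FPKM on PD14 and 7.77 to 12.5 FPKM in the other 6 libraries. The other 4 markers of the list were highest elsewhere: Cyp17a1 at 46.5 FPKM and Star at 8.18 FPKM in replicate 3 of PD16, Insl3 at 6.27 FPKM in replicate 2 of PD15, and Ptch1 in replicate 2 of PD14. The log2 change was above 0 for 1 of the 7 markers and below 0 for 6 at PD15 against PD14 (median -0.41), and above 0 for 3 and below 0 for 4 at PD16 against PD14 (median -0.02), and none passed an adjusted p of 0.05 in limma in any comparison. Cyp19a1, the aromatase gene listed as a granulosa marker, stood at 6.61, 3.77 and 4.95 FPKM on PD14. It was at 2.84, 2.47 and 3.51 FPKM on PD15 and at 2.54, 2.69 and 1.89 FPKM on PD16. Like Inhba, it was highest in replicates 1 and 3 of PD14. At PD16 against PD14 it fell by 0.84 on the log2 scale (limma adjusted p = 0.0316), while Amh of the same list rose by 0.47 (limma adjusted p = 0.0223). Of the 8 granulosa markers, 4 were above 0 and 4 below 0 at PD16 against PD14 (median 0.07). By quantitative RT-PCR the paper reports that Cyp11a1 and Cyp19a1 increased on PD15 and PD16, the other direction from the changes here. For Cyp11a1 these were -0.91 and -0.61 against PD14, and neither was called. The part of theca, interstitial and granulosa cells in the Inhba levels was not tested. In whole ovary fewer cells of a type and less RNA per cell cannot be told apart.

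**Figure D3:**
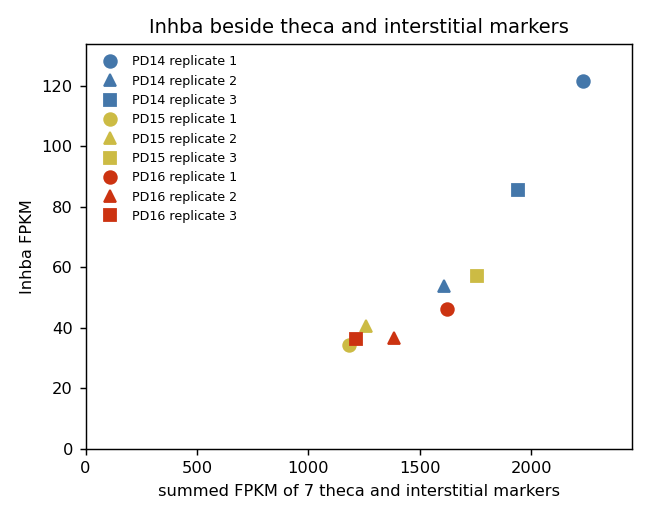
Inhba level in FPKM against the summed FPKM of 7 theca and interstitial markers, with 1 point for each of the 9 libraries, coloured by day and shaped by replicate number. Replicates 1 and 3 of PD14 and replicate 3 of PD15 are highest on both axes, with Inhba at 122, 85.5 and 57.1 FPKM.

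Inhbb (ENSMUSG00000037035, chr1:119415465-119422248, minus strand) encodes the beta B subunit of activin B and inhibin B. Its level was 200.1, 181 and 204 FPKM on PD14, 223, 198 and 169 FPKM on PD15, and 182, 201 and 146 FPKM on PD16. The days overlapped, and the log2 change was 0.01 (95% interval -0.30 to 0.31) at PD15 and -0.15 (-0.46 to 0.15) at PD16, each against PD14. The latter was -0.02 without replicate 3 of PD16 and -0.26 without replicate 2 of PD16. The exact permutation test gave p = 0.557. The mean ratio of Inhba to Inhbb within a library was 0.442 ± 0.156 on PD14, 0.232 ± 0.0950 on PD15 and 0.229 ± 0.0407 on PD16 (SD, n = 3). The ratio did not pass the exact permutation test among the days (p = 0.104, 0.204 after adjustment over the 4 ratios tested), and Inhbb was above Inhba in all 9 libraries.

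**Figure D4:**
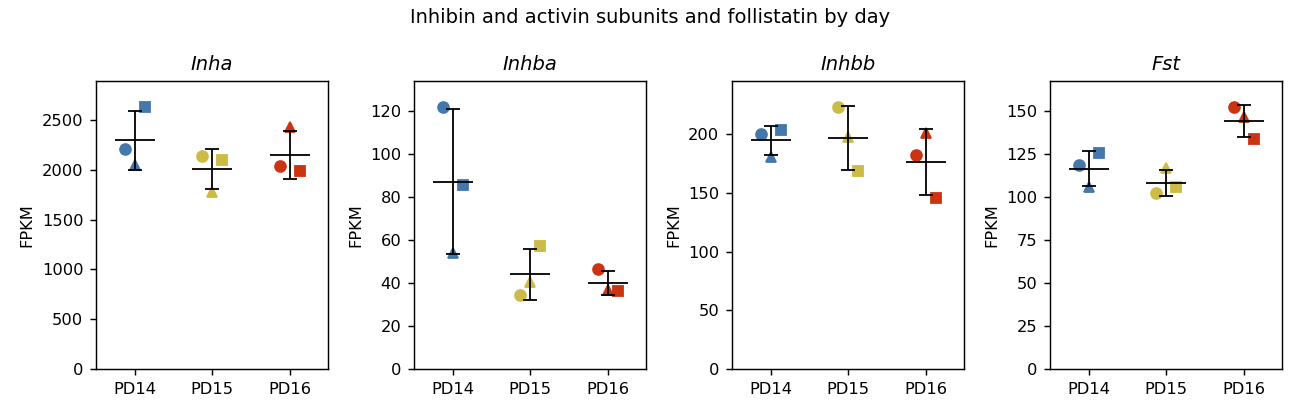
FPKM of Inha, Inhba, Inhbb and Fst by day on axes from 0, with 1 point per library shaped by replicate number, a bar at the day mean and whiskers of 1 SD (n = 3). Inhba is spread from 53.9 to 122 FPKM on PD14, and the 3 libraries of PD16 for Fst, at 134 to 152 FPKM, lie above the other 6.

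Among the binding proteins, Fst (ENSMUSG00000021765, chr13:114452290-114458951, minus strand) encodes follistatin. Its level was 118, 105 and 125 FPKM on PD14, 102, 117 and 106 FPKM on PD15, and 152, 146 and 134 FPKM on PD16. All 3 libraries of PD16 lay above the 6 others, and PD14 and PD15 overlapped. Its exons share 115 bases with the antisense gene Gm47040. The means were 116 ± 10.1, 108 ± 7.53 and 144 ± 9.46 FPKM (SD, n = 3 each), a fold of 1.24 for PD16 against PD14 and 1.33 against PD15. The log2 change in limma was 0.31 (SE 0.09, adjusted p = 0.0814) and 0.41 (SE 0.09, adjusted p = 0.0723), so neither passed the threshold over all genes. The exact permutation test over the 3 days gave p = 0.0143 for Fst alone, without adjustment over the 10 members. The smallest p of this design is 0.00357. Over 18 alternatives the change at PD16 against PD15 stayed between 0.37 and 0.46, with adjusted p from 0.0424 to 0.208. The summed level of 8 granulosa markers, all detected, was 808 to 856, 838 to 932 and 848 to 906 FPKM on the 3 days. That of 8 oocyte markers, also all detected, was 1003 to 1228, 1318 to 1396 and 957 to 1025 FPKM. Of the oocyte list Nlrp5 rose at PD15 and Bmp15 at PD16, each against PD14, and Nlrp5 and Zp2 fell at PD16 against PD15. Against PD14 the log2 change was above 0 for 7 of the 8 oocyte markers at PD15 (median 0.22). It was above 0 for 3 and below 0 for 5 at PD16 against PD14 (median -0.21). At PD16 against PD15 it was below 0 for all 8 (median -0.38). Of the granulosa list Amh rose at PD16 against PD14 while Cyp19a1 fell, as above. The part of the cell makeup in the Fst levels was not tested.

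Markers of other tissues were also summed in each library, over all listed genes whether or not they passed the filter. Stroma (6 of 6 markers passed) summed to 432 to 502 FPKM on PD14, 388 to 453 on PD15 and 443 to 456 on PD16, and endothelium (5 of 5) to 56.6 to 59.7, 52.3 to 56.3 and 50.9 to 53.2. Blood and immune markers (5 of 6 passed) summed to 103 to 135, 46.6 to 62.9 and 61.0 to 114 FPKM, mostly haemoglobin, of which Hba-a1 fell at PD15 against PD14 (limma adjusted p = 0.0381). Smooth muscle (4 of 4) summed to 275 to 315, 264 to 345 and 302 to 402 FPKM, and Cnn1 rose at PD16 against PD14 (limma adjusted p = 0.0348). Surface and oviduct epithelium (5 of 6 passed) summed to 51.2 to 52.2, 42.1 to 46.8 and 36.4 to 39.8 FPKM, and its keratins Krt8, Krt18 and Krt19 fell at PD16 against PD14 in limma. Fat markers (1 of 4 passed, Plin1) summed over the 4 to 6.86 to 8.02, 4.58 to 5.16 and 4.24 to 6.03 FPKM, and Plin1 fell at PD15 and PD16 against PD14 (limma adjusted p = 0.0377 and 0.0294). Their part in the levels of the 10 genes was not tested.

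Fstl3 (ENSMUSG00000020325, chr10:79777272-79782630, plus strand) encodes a follistatin-like protein that also binds activin, and it had the lowest level of the 10 genes. It stood at 1.08, 1.25 and 0.863 FPKM on PD14, 0.980, 0.945 and 0.811 FPKM on PD15, and 1.08, 1.39 and 1.35 FPKM on PD16. The libraries of PD16 lay above those of PD15, with a log2 change of 0.25 (95% interval -0.00 to 0.50) and an adjusted p of 0.356 in limma. The pseudocount lowers this value at so low a level: the fold of the means was 1.40, and the log2 change was 0.44 (adjusted p = 0.371 in limma) with a pseudocount of 0.1. Each library held 43 to 84 fragments of Fstl3, for which counting error is up to 15.3% in a library. Its exons share 1157 bases with Prss57 on the opposite strand, which was at most 0.0146 FPKM.

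The transcript of the binding protein was set against those of the beta subunits as the ratio of Fst to the sum of Inhba and Inhbb within each library. Activins and inhibins share the beta subunits, so this ratio of transcripts does not give the balance of follistatin to activin. The ratio was 0.367, 0.450 and 0.433 on PD14, 0.398, 0.489 and 0.467 on PD15, and 0.666, 0.616 and 0.735 on PD16. All libraries of PD16 lay above the other 6. The mean was 0.672 ± 0.0597 on PD16 against 0.417 ± 0.0435 on PD14 and 0.451 ± 0.0476 on PD15 (SD, n = 3 each), a log2 difference of 0.69 and 0.58. The exact permutation test over the days gave p = 0.0179, which became 0.0714 after adjustment over the 4 ratios and did not pass. Over the alternatives the adjusted exact permutation p ran from 0.0286 without replicate 1 of PD15 to 0.129 without replicate 1 of PD14. A ratio within a library does not change with the scaling of that library. It does rest on the exon lengths behind the FPKM, and those of both Fst and Inhba differed from GENCODE M21, as given above.

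The ratio of both beta subunits to Inha, (Inhba + Inhbb) to Inha, was 0.123 ± 0.0194, 0.121 ± 0.0132 and 0.101 ± 0.0103 on PD14, PD15 and PD16 (SD, n = 3 each). The exact permutation test gave p = 0.204, and 0.204 after adjustment. The ratio was 0.146 in the highest library and 0.0916 in the lowest, so the alpha subunit transcript exceeded the sum of the beta transcripts in all 9 libraries.

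**Figure D5:**
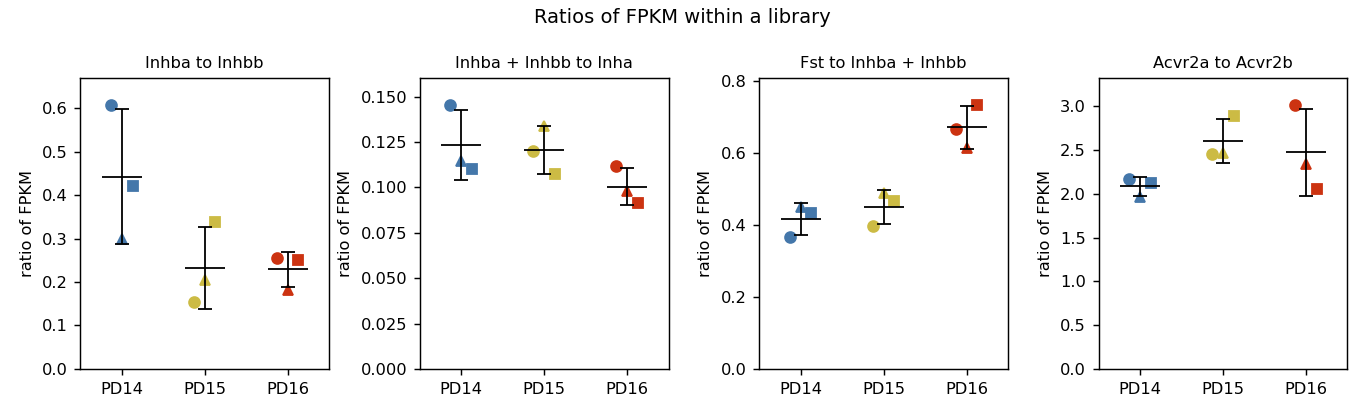
Ratios of FPKM within a library by day, with 1 point per library shaped by replicate number, bars at the day means and whiskers of 1 SD (n = 3); each axis starts at 0. The ratio of Fst to Inhba plus Inhbb is 0.616 to 0.735 on PD16 and 0.367 to 0.489 on the earlier days, while in the other 3 ratios no day stands apart from both others.

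Among the receptors, Acvr2a (ENSMUSG00000052155, chr2:48814109-48903269, plus strand) and Acvr2b (ENSMUSG00000061393, chr9:119402118-119434995, plus strand) encode the type II receptors that bind activin. Acvr2a was at 5.33, 5.81 and 5.59 FPKM on PD14, 6.18, 6.80 and 6.41 FPKM on PD15, and 6.64, 5.66 and 5.97 FPKM on PD16. The libraries of PD15 lay above those of PD14, with a log2 change of 0.18 (SE 0.07, adjusted p = 0.260 in limma). Its exons share 446 bases with Orc4 on the opposite strand, which was at 7.24 FPKM on average. The library kit does not mark strand, so reads of that stretch, and of the other stretches shared with a gene on the opposite strand, cannot be told apart. Acvr2b was at 2.45, 2.95 and 2.64 FPKM on PD14, 2.51, 2.76 and 2.22 FPKM on PD15, and 2.20, 2.41 and 2.90 FPKM on PD16. The days overlapped, with log2 changes of -0.08, -0.07 and 0.00 in the 3 comparisons. Without 1 library the first ran from -0.13 to -0.02 and the second from -0.15 to -0.01. The ratio of Acvr2a to Acvr2b was 2.09 ± 0.107 on PD14, 2.61 ± 0.249 on PD15 and 2.47 ± 0.494 on PD16 (SD, n = 3 each; exact permutation p = 0.171, adjusted 0.204).

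Acvr1b (ENSMUSG00000000532, chr15:101174067-101213684, plus strand) encodes ALK4, the type I receptor through which activin signals. Its level was 8.84, 9.32 and 8.83 FPKM on PD14, 7.43, 8.21 and 8.04 FPKM on PD15, and 8.45, 8.06 and 8.20 FPKM on PD16. Every PD14 library lay above the other 6, with small spread within a day. The means were 9.00 ± 0.281, 7.89 ± 0.409 and 8.24 ± 0.197 FPKM (SD, n = 3 each). The log2 change was -0.17 (SE 0.05, adjusted p = 0.200) at PD15 and -0.11 (adjusted p = 0.249) at PD16 in limma, each against PD14, so neither passed. The exact permutation test over the 3 days gave p = 0.0107 for this gene alone, without adjustment over the 10 members.

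Tgfbr3 (ENSMUSG00000029287, chr5:107106570-107289629, minus strand) encodes betaglycan, the co-receptor through which inhibin holds type II receptors. It was at 17.2, 19.2 and 16.7 FPKM on PD14, 18.7, 20.2 and 16.5 FPKM on PD15, and 18.5, 18.1 and 20.4 FPKM on PD16. The days overlapped, and the exact permutation test gave p = 0.557. The exons of Tgfbr3 share 297 bases with Gm43422 on the same strand, which was at 0.119 FPKM on average. Bambi encodes a pseudoreceptor that lacks a kinase domain and dampens signalling of the family. It was at 6.49, 5.49 and 6.30 FPKM on PD14, 5.25, 5.45 and 6.77 FPKM on PD15, and 6.92, 6.51 and 4.92 FPKM on PD16. The days overlapped, with an exact permutation p of 0.929. The 95% intervals of the log2 change at PD16 against PD14 were -0.09 to 0.29 for Tgfbr3 and -0.28 to 0.27 for Bambi.

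No relation among Inha, Inhba, Inhbb and Fst across the 9 libraries passed its test. Over the 6 pairs, Pearson's r ran from -0.199 for Inhbb and Fst to 0.411 for Inha and Inhba, and every adjusted exact permutation p of r was 0.721. Spearman's rho was highest for Inha and Inhbb at 0.667 (exact permutation p = 0.0589, adjusted 0.353). Taken on the deviations from the day means, r turned from -0.199 to 0.456 for Inhbb and Fst, from -0.143 to 0.496 for Inhba and Fst, and from 0.160 to -0.0725 for Inhba and Inhbb. It was 0.172 for Inha and Inhba, 0.489 for Inha and Inhbb and 0.236 for Inha and Fst. Leaving out the 2 libraries farthest from the median of the first gene moved r of Inha and Inhba from 0.411 to 0.0637, of Inha and Inhbb from 0.366 to 0.621 and of Inhba and Inhbb from 0.160 to -0.311. The same step gave -0.302 for Inhba and Fst, -0.350 for Inhbb and Fst and 0.208 for Inha and Fst.

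The genes with the profile most like that of each were named from the 6183 genes tested with a mean above 10 FPKM, by Pearson's r of log2(FPKM + 1) over the same 9 libraries. They were Ppp4c (0.92), Nubp2 (0.91) and H13 (0.90) for Inha, and Ctsk (0.98), Rfk (0.97) and Tsc22d1 (0.95) for Inhba. For Inhbb they were Mad1l1 (0.99), Sin3a (0.93) and Tcf7 (0.92), and for Fst they were Ado (0.95), Herpud1 (0.93) and RP23-48A24.3 (0.92). Ctsk, a protease gene, was at 15.1, 12.9 and 14.2 FPKM on PD14 and at 10.8 to 12.7 FPKM on the later days. These are the highest of 6183 values for each gene over 9 shared libraries, and they are given as a description. Of the 12 genes named, 4 to 9 were named again when 1 library was left out and 5 with TPM scaling.

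Beyond the 10 members, a list of 33 other gene symbols of activin signalling and its relatives held 24 that passed the filter. The symbol Cripto matched no row and names the same gene as Tdgf1, and Inhbc, Inhbe, Mstn, Acvr1c, Tdgf1, Igsf1, Cfc1 and Foxh1 were below the filter. None of the 24 was called at PD15 against PD14 in limma. At PD16 against PD14, 2 rose and 1 fell, beside 4.25% of all genes tested called, and at PD16 against PD15, 1 rose, beside 0.729% of all genes. The list's median log2 change was 0.01, 0.05 and 0.05 in the 3 comparisons, beside 0.01 in each over all genes tested. Those that rose were receptors of bone morphogenetic proteins. Bmpr2, a type II receptor, was at 19.2, 18.9 and 19.3 FPKM on PD14, 19.0, 19.6 and 20.3 FPKM on PD15, and 29.8, 25.5 and 29.8 FPKM on PD16, so every PD16 library lay above the others. Its log2 change was 0.54 (SE 0.07, adjusted p = 0.00877) against PD14 and 0.50 (adjusted p = 0.0213) against PD15 in limma. It was called against PD14 in all 18 alternatives and against PD15 in 14 of 18, losing the call when replicate 1 or 2 of PD15, or replicate 1 or 3 of PD16, was left out (adjusted p 0.0508 to 0.0828).

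Bmpr1b, a type I receptor of the same family, rose from 19.2 ± 0.630 FPKM on PD14 to 27.2 ± 3.67 FPKM on PD16 (SD, n = 3 each; log2 change 0.47, limma adjusted p = 0.0240). It kept the call in 13 of 18 alternatives and lost it without replicate 1 or 3 of PD14 or replicate 1 of PD16 (adjusted p 0.0590 to 0.0818), without the filter on low values (0.0627), and with the replicate block given under the processing alternatives. Smad3, a transducer of activin signals, fell from 49.3 ± 3.44 to 36.7 ± 2.81 FPKM on the same days, and by 0.42 on the log2 scale (limma adjusted p = 0.0316). Its call held in 9 of 18 alternatives. Leaving out any of replicates 1 and 3 of PD14, replicate 1 of PD15 and the 3 replicates of PD16 gave an adjusted p of 0.0504 to 0.105. The call was also lost with TPM scaling (adjusted p = 0.0639), without the filter on low values (0.0786) and with the replicate block. The other transducers were not called at PD16 against PD14: Smad2 had a log2 change of -0.00, Smad4 of 0.17 (adjusted p = 0.118), and the inhibitory Smad7 of 0.05. The type I receptors Tgfbr1 and Acvr1 had changes of 0.08 and -0.21 (limma adjusted p = 0.487 and 0.106). Without 1 library the change ran from 0.01 to 0.10 for Smad7 and from 0.03 to 0.13 for Tgfbr1.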

How the data were processed

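RNA of 9 ovary samples from Kunming mice was extracted with TRIzol, and the authors had the libraries made (NEBNext Ultra kit, which does not mark strand) and sequenced by Novogene on an Illumina HiSeq. The authors deposited FPKM in 1 table per library. The submitters' processing notes name HISAT2 2.0.5 and mm10; the counter and the annotation release are not given in the sources used here. Steps between low FPKM gave 20.4 to 28.7 M fragments per library, with 94.58% to 95.06% of low values whole within 0.02 fragments; counting errors cover sampling of fragments only. Of the members, Inhba, Fst, Acvr1b and Bambi needed another exon length than GENCODE M21.

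Genes whose mean FPKM exceeded 1 on any day entered limma 3.58.1 with an intensity trend (R 4.3.3) on log2(FPKM + 1), in 1 model over all libraries. Ratios and single genes were compared by exact permutation tests (one-sided for the 280 groupings; 2 days of 3 libraries cannot go below p = 0.10). Samples are called biologically independent ovaries; p-values measure the spread between these libraries. The limma comparison of PD16 against PD14 was tested on simulated data. The members, lists and naming rules were chosen with earlier results of these data known. Genes named were the 10 members, called genes of the pathway list with Smad2, Smad3, Smad4, Smad7, Tgfbr1 and Acvr1, the 3 most alike genes per subunit and Fst, and markers. Replicate numbers did not pair samples. The promoter table is RefSeq GRCm38.p6, and the start it gives for Inha lies inside the gene, so that window is not used here.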

Additional observations from a re-analysis of the deposited data

How the results depend on the processing

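The limma results of the members and of the pathway list were recomputed under other pseudocounts, filters, scalings and limma settings. They were also recomputed with the replicate number as a block and without each library in turn. The ratios were recomputed with another pseudocount, with the block and without each library. For the correlations the alternatives were Spearman's rho and leaving out each library, and for the most alike genes another pseudocount, TPM scaling and leaving out each library. The calls of marker genes and the exact permutation tests of single genes were not recomputed. Of the recomputed values 18 lost a call, 4 gained one, 23 changed sign, and 21 counts moved by over 1.5 times or to or from 0. The other 824 did none of these; a count was kept among them when it was within 1.5 times, so that a pathway count of 2 in place of 3 is included, as is Inha at PD15 against PD14, which was 0.0 under quantile normalization. Under quantile normalization 1 member was called at PD16 against PD14 (Inhba) and 1 at PD16 against PD15 (Fst). Leaving out 1 library gave 0 to 1 members called at PD16 against PD14, the 1 being Inhba without replicate 2 of PD14. The activin pathway list had 1 gene called at PD16 against PD14 (Bmpr2) without a filter on low values and 1 with the replicate block, and 1 to 3 when a library was left out; at PD16 against PD15 the range was 0 to 2. The calls over all genes, 105, 659 and 113 in the 3 comparisons and 469 by the F test, were 24, 227, 56 and 127 with the block and 29, 172, 24 and 95 without a filter. They were 3 to 92, 92 to 660, 14 to 125 and 100 to 354 without 1 library; at PD15 against PD14 a filter on every day gave 58, and TPM scaling gave 397 at PD16 against PD14 and 309 by the F test; same-numbered libraries correlated in their deviations from the day means by -0.214 to 0.159, and not every library correlated best with its own number. No member was called with the block, and Bmpr1b and Smad3 lost their calls at PD16 against PD14 (limma adjusted p = 0.0612 and 0.0767).

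Values that changed sign were all small and uncalled. Under quantile normalization Inha at PD16 against PD15 was -0.11, with TPM scaling Inhbb at PD15 against PD14 was -0.0091 and Acvr2b at PD16 against PD15 -0.0061, and with median-ratio scaling Smad2 at PD16 against PD14 was 0.00037. Leaving out a library gave log2 changes at PD16 against PD14 of -0.181 to 0.0105 for Inha, -0.0857 to 0.124 for Bambi and -0.0559 to 0.0502 for Smad2. At PD15 against PD14 it gave -0.0877 to 0.111 for Inhbb, -0.0036 to 0.134 for Tgfbr3 and -0.156 to 0.00040 for Bambi. At PD16 against PD15 it gave -0.277 to 0.0809 for Inhba, -0.0779 to 0.0649 for Acvr2b, -0.0333 to 0.105 for Tgfbr3 and -0.0264 to 0.183 for Bambi. The log2 difference of the ratio of Fst to Inhba plus Inhbb ran from 0.60 to 0.75 without a library. The cause of these shifts was not tested, and 3 libraries a day limit every comparison.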
